A study of Mus musculus with 6 samples.

Results

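The genes described here encode the heavy chains of mouse MHC class I and their partner B2m, in 2 groups of T cells measured on 6 arrays. The members are probe sets whose single symbol in the array's annotation is H2-D1, H2-K1, H2-Q1, H2-Q7, H2-Q10, H2-T10, H2-T22, H2-T23, H2-M3 or B2m. This gave 17 of the 45101 probe sets, for 5 of the 10 genes (the array names 18193 genes by single symbols): 9 for H2-D1, 4 for H2-K1, 2 for B2m and 1 each for H2-Q10 and H2-M3. H2-T23, which encodes Qa-1, had no probe set of its own. Its probe sets carry a second symbol, H2-T-ps, as those of H2-T10, H2-T22 and H2-Q7 also carry others, and H2-Q1 was not listed at all. A further 8 probe sets list a member among several symbols, and they are given apart, under all their symbols.

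The 2D11 arrays (replicates 1, 2 and 4) are labelled CD8aa Tregs, and the series title describes such cells as restricted by Qa-1. The OvacD8 arrays (replicates 1, 2 and 3) are labelled OT-1 and, like 2D11, as carrying CD8aa, and also as TCRab+; the OT-1 receptor is a transgene that sees an ovalbumin peptide. Both groups are described as T cell clones that were cultured with their own antigen, antigen-presenting cells and IL-2, so each group may be repeats of 1 clone. The comparison asks how the 2D11 cells differ from the OT-1 cells. The labels give neither sex, age, strain nor MHC haplotype, and do not tell if replicates came from separate cultures. The p-values then measure only the spread between samples, and that spread may be technical.

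Class I molecules present peptides from inside the cell to CD8 T cells, and a heavy chain needs B2m, the invariant light chain, to fold and reach the surface. The classical heavy chains H2-K1 and H2-D1 are made by nearly all nucleated cells and are among the most polymorphic genes of the mouse. The nonclassical chains vary less: Qa-1 presents leader peptides of other class I chains to CD94-NKG2 receptors, and H2-M3 presents formylated peptides. Interferons, NF-kB and the factor NLRC5 act on the promoters of class I genes.

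Each array value below is a deposited log2 value, from which the median of that probe set over the 6 arrays had been subtracted. A value shows how an array stands against the other arrays and not how bright the probe set was. Probe sets of 1 gene can therefore be compared for their differences and not for their levels. Where all arrays of the groups separate, 0 lies midway between the nearest pair. Identifiers that end in _x_at mark probe sets with probes that may also match other genes, _s_at those shared by transcripts of several genes, and _a_at those shared by transcripts of 1 gene. Of the 17 members, 11 end in _x_at, 3 in _a_at, 3 in plain _at and 0 in _s_at.

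The stretches of DNA just upstream of H2-D1, H2-Q10, H2-T23 and B2m are shown because the arrays placed these genes differently: higher in 2D11 for some H2-D1 probe sets, lower for H2-Q10 and for probe sets listed under H2-T23, and not called for B2m. Each line holds the 200 bases before the annotated start, 5′ to 3′ on the strand of the gene. They come from RefSeq on build GRCm38.p6 of C57BL/6J, and need not be the alleles of either group. Capitals mark matches, on either strand, to GGGATTCCC (kappa B), TTTCNNTT (the core of the interferon-stimulated response element), AGTTTCACTTCT (that core of H2-D1 with 2 bases on each side), TGATGACG (the X2 box) and CCAAT.
H2-D1, chr17:35262894-35263093, plus strand: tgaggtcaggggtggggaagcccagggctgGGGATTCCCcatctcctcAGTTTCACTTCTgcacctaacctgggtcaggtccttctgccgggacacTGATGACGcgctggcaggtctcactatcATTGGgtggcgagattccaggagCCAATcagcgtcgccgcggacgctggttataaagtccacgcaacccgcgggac
H2-Q10, chr17:35469889-35470088, plus strand: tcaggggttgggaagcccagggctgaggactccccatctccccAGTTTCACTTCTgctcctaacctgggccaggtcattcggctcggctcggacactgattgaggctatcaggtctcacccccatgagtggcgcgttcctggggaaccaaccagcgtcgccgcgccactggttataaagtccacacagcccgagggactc
H2-T23, chr17:36032702-36032901, minus strand: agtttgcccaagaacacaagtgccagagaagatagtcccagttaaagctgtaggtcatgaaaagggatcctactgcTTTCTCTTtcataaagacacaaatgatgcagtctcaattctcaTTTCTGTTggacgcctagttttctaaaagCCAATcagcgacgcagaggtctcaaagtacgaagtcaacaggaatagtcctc
B2m, chr2:122147487-122147686, plus strand: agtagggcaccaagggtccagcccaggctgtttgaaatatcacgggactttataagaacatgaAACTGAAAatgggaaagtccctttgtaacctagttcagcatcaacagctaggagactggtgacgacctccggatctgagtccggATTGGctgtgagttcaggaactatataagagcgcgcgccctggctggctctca

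The table of promoters held 8 of the 10 genes, and the 250 bases before each start were searched. For H2-K1 and H2-Q7 these bases reached into the annotated gene, so matches there need not lie upstream of the whole gene. The kappa B letters were found before the start of 3 of the 8 genes, H2-D1, H2-K1 and H2-Q7, and in 0.301% of all 32851 promoters. The 12 letters taken from H2-D1 were also found upstream of H2-K1, H2-Q7 and H2-Q10. In all, 9 promoters held them (0.0274%), a count that includes members. Their 8-letter core, which lies within them, was found in 8 of 8 members and in 21.3% of all promoters. The X2 letters were found in H2-D1, H2-Q7 and H2-M3 (0.630% of all promoters), and CCAAT in each of the 8 but H2-Q10 (33.8%). H2-Q10 thus held the 12 letters, from -157 to -146, and no match to the kappa B, X2 or CCAAT letters. H2-D1 held matches to each of those. Its match to the 12 letters was fixed in advance, since they were taken from H2-D1. H2-T23 and B2m held the short core and CCAAT. These matches describe reference letters and do not show that a factor binds. Only these exact letters were searched, so the lack of a match does not show that a site is absent.

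H2-D1, a classical heavy chain, gave the largest differences of the class I genes, but in 3 of its 9 probe sets only. Those 3, 1425614_x_at, 1452544_x_at and 1427651_x_at, were higher in 2D11 by 9.43 to 10.099 on the log2 scale and passed at an adjusted p under 0.05, as 4.06% of all probe sets tested did. The other 6 did not pass, and their differences lay between -0.13 and 0.45. Probe sets listed under this 1 gene thus spanned 10.23 in their differences, against a highest standard deviation within a group of 0.53.

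Probe set 1425614_x_at of H2-D1 stood at 5.16, 4.92 and 5.14 on 2D11 replicates 1, 2 and 4. It stood at -4.96, -5.19 and -4.92 on OvacD8 replicates 1, 2 and 3. All 2D11 arrays lay far above all OvacD8 arrays, and neither group had a standard deviation above 0.15. The difference, 2D11 minus OvacD8, was 10.099 ± 0.10 (SE of the fit, n = 3 per group; limma adjusted p = 2.25e-05), a 1097-fold difference in the deposited scale.

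Probe set 1452544_x_at of H2-D1 read 4.68, 4.84 and 4.69 on the 2D11 arrays. On the OvacD8 arrays it read -5.73, -5.18 and -4.68. The groups were as far apart here, with a wider spread among the OvacD8 arrays, where replicate 1 was lowest. The difference was 9.93 ± 0.28 (limma adjusted p = 0.000361).

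Probe set 1427651_x_at of H2-D1 was the tightest of the 3, at 4.67, 4.75 and 4.65 on 2D11 and -4.77, -4.65 and -4.79 on OvacD8. Its difference was 9.43 ± 0.05 (limma adjusted p = 3.30e-06). By size, these 3 differences ranked 3, 4 and 7 among the 45037 probe sets tested. Only 14 of those probe sets differed by at least 8 in either direction, 7 higher and 7 lower in 2D11. Besides the 3 of H2-D1, 1451593_at, listed under H2-Q5 and H2-K1, was among them, and no further _x_at probe set was. The others with 1 symbol were of Gzma and Gzmk (granzymes), Plac8, Anxa2, Xist and BC018473.

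The remaining 6 H2-D1 probe sets lay between -0.24 and 0.40 on every array. Probe set 1426324_at read 0.10, 0.40 and 0.38 on 2D11 and -0.20, -0.10 and -0.17 on OvacD8. Its groups did not overlap, as in 20.3% of all probe sets, but the difference of 0.45 ± 0.09 did not pass (limma adjusted p = 0.0852). Without 2D11 replicate 1 it did, at 0.55 (limma adjusted p = 0.0214). The groups overlapped in the other 5, of which 4 end in _x_at: 1425545_x_at (0.11), 1451784_x_at (0.07), 1451683_x_at (0.01), 1451934_at (0.003) and 1450170_x_at (-0.13), with adjusted p from 0.595 to 0.948. Of these, 1451934_at spanned 0.02 over the 6 arrays, the only member to span less than 0.1, as 34.4% of all probe sets did.

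The 9 H2-D1 probe sets were built on 9 different sequence records, per the annotation. Class I alleles of different haplotypes differ in sequence, and array probes are short. The labels do not give the haplotypes of the clones, so a difference in the amount of H2-D1 RNA and a difference in the alleles that meet the probes cannot be told apart. Averaged into 1 value per gene, H2-D1 was higher in 2D11 by 3.33 (limma adjusted p = 0.000107), a size that none of its 9 probe sets showed. Averaged without the _x_at probe sets, it was higher by 0.23 and did not pass (limma adjusted p = 0.0707).

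**Figure D1:**
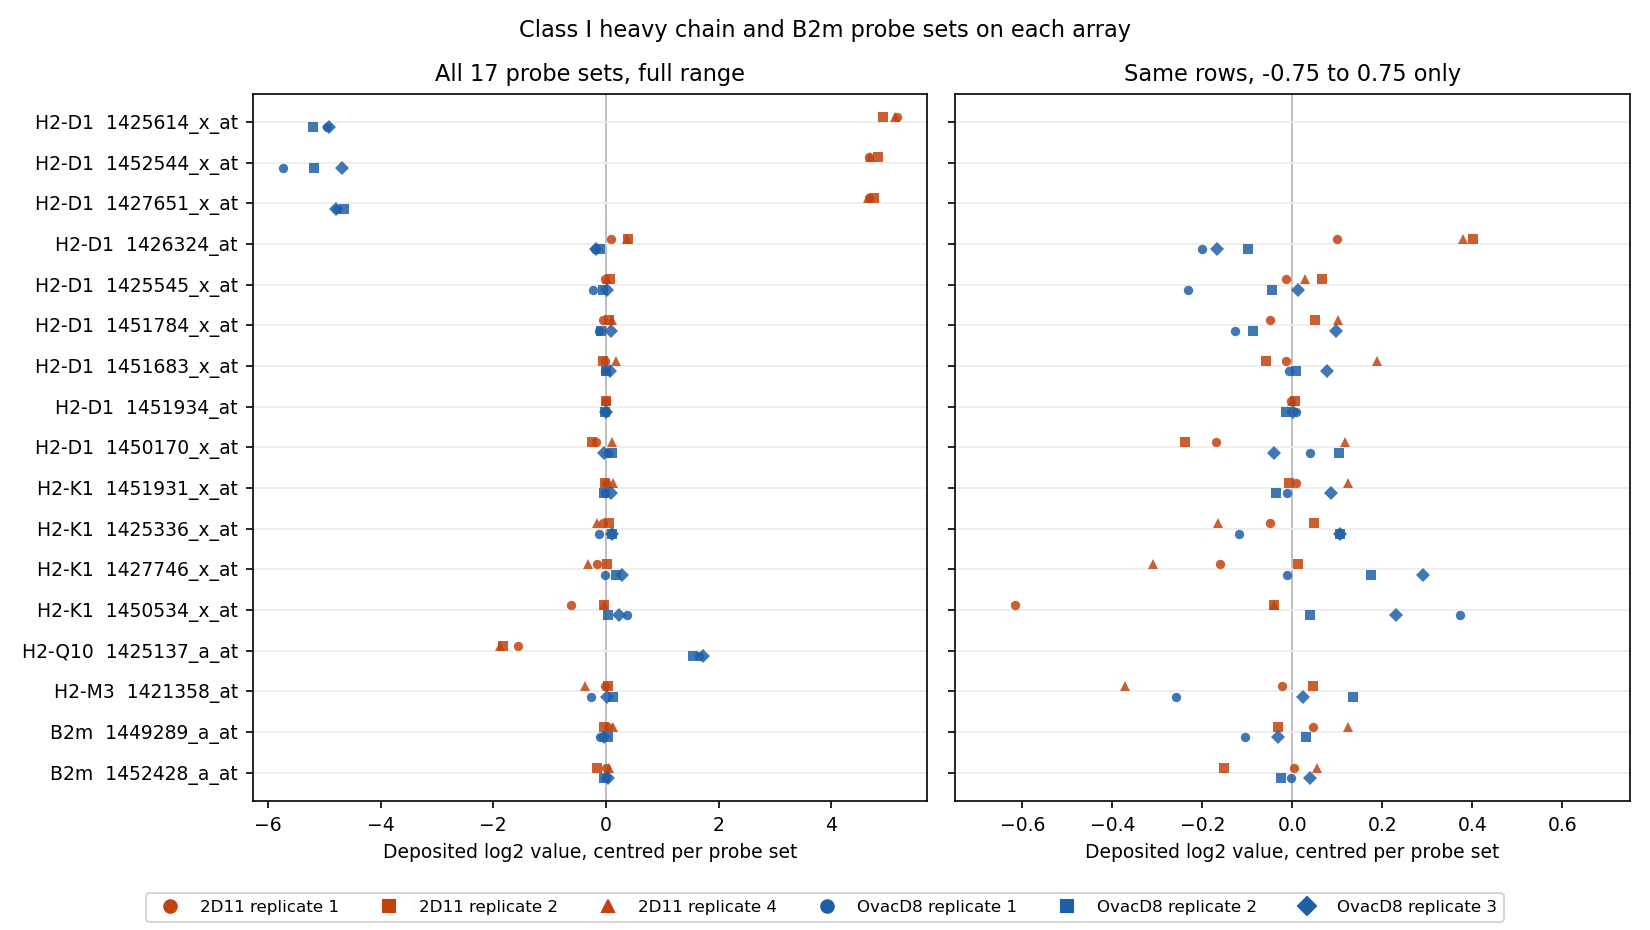
Deposited log2 values, centred per probe set, of the 17 probe sets on each array, with 2D11 in red and OvacD8 in blue and 1 symbol per replicate; the right panel enlarges the middle of the left one. The upper 3 rows, of H2-D1, hold 2D11 arrays at 4.65 or above and OvacD8 arrays at -4.65 or below, the H2-Q10 row runs the other way, and the other 13 rows lie close to 0.

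H2-K1, the other classical heavy chain and the gene of the molecule that shows OT-1 cells their peptide, did not pass in any of its 4 probe sets. All 4 end in _x_at, and their differences ran from -0.45 to 0.03 (limma, 1 of 4 at an unadjusted p under 0.05, and 0 of 4 when variances were not moderated). The widest was 1450534_x_at, which read -0.62, -0.04 and -0.04 on 2D11 and 0.37, 0.04 and 0.23 on OvacD8. Its groups did not overlap, though the nearest arrays were 0.08 apart, and its difference of -0.45 ± 0.20 did not pass (limma adjusted p = 0.378).

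The next was 1427746_x_at of H2-K1, at -0.16, 0.01 and -0.31 on 2D11 and -0.01, 0.17 and 0.29 on OvacD8, a difference of -0.30 ± 0.12 (limma adjusted p = 0.308). Its groups overlapped, as did those of 1425336_x_at (-0.09) and 1451931_x_at (0.03). A probe set listed under both H2-K1 and H2-D1, 1424948_x_at, differed by -0.12 ± 0.11 (limma adjusted p = 0.767).

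Against these, 1451593_at, listed under H2-K1 and H2-Q5 (in RefSeq a transcribed pseudogene), was far higher in 2D11. It read 4.48, 4.69 and 4.21 on the 2D11 arrays and -4.21, -4.23 and -4.22 on the OvacD8 arrays. The groups were as clearly apart as in the 3 H2-D1 probe sets, and the OvacD8 arrays were nearly equal. The difference was 8.69 ± 0.13 (limma adjusted p = 5.91e-05), and which of the genes it reports cannot be read from the annotation. Under H2-Q5 alone, 1450582_at read 1.36, 0.96 and 0.42 on 2D11 and -0.42, -0.48 and -0.42 on OvacD8 and did not pass at 1.35 ± 0.25 (limma adjusted p = 0.0642). The second H2-Q5 probe set, 1430802_at, stood at -0.53 ± 0.41 (limma adjusted p = 0.719).

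H2-Q10, a class I chain without a membrane anchor that the liver secretes into serum, was lower in 2D11 in its single probe set, 1425137_a_at. The values were -1.55, -1.82 and -1.89 on 2D11 and 1.65, 1.55 and 1.73 on OvacD8. The groups lay over 3 apart with little spread in either. The difference was -3.40 ± 0.10 (limma adjusted p = 0.000419). It passed in every alternative tried, with differences from -3.50 to -3.07.

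H2-Q7, a member of the Qa-2 group, shares its probe set 1418536_at with its relative H2-Q9. It read -0.36, -0.25 and -0.33 on 2D11 and 0.26, 0.30 and 0.25 on OvacD8, so that no 2D11 array reached an OvacD8 array. The probe set was lower in 2D11 by -0.58 ± 0.04 (limma adjusted p = 0.00325).

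Qa-1 was covered by 2 probe sets listed under H2-T23 and H2-T-ps, whose sequence record is in RefSeq that of H2-T23. Both were lower in 2D11. Probe set 1419658_at read -2.06, -1.72 and -1.71 on 2D11 and 1.71, 2.42 and 2.46 on OvacD8. The groups did not overlap, and OvacD8 replicate 1 was the lowest of its group. The difference was -4.03 ± 0.24 (limma adjusted p = 0.00286), a 16.4-fold difference.

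Probe set 1449556_at, under the same symbols, read -0.68, -0.59 and -0.76 on 2D11 and 0.59, 0.98 and 0.93 on OvacD8. The order of the groups was the same and the gap smaller. Its difference was -1.51 ± 0.12 (limma adjusted p = 0.00656), a 2.85-fold difference. Both probe sets passed in each of the 6 fits without 1 array, at -4.28 to -3.90 and -1.63 to -1.44. They share a sequence record but not the size of their difference. As for H2-D1, RNA amount and alleles at the probes cannot be told apart here, nor for the other class I genes.

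By root mean square difference over the 6 arrays, the 5 probe sets with 1 symbol most like 1419658_at were those of Txk (0.117), Ubash3b (0.138), Ms4a6d (0.200), Ifi213 (0.220) and Neil1 (0.227). Those most like 1449556_at were of Ptpn12 (0.0879), Ugcg (0.0896), Pag1 (0.0922), Zkscan17 (0.0945) and Psen2 (0.0976). Txk is a kinase of the T cell receptor pathway, Pag1 a membrane adaptor and Ugcg the enzyme that makes glucosylceramide. The lists share no gene, and the 6 arrays of each pair are the same, so this describes these arrays alone.

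H2-T10 and H2-T22, nonclassical chains that some gamma delta T cell receptors bind, share their 2 probe sets with H2-T9. Probe set 1439121_at read -0.80, -0.47 and -1.03 on 2D11 and 0.47, 1.24 and 1.49 on OvacD8. Its difference of -1.83 ± 0.32 did not pass (limma adjusted p = 0.0547). Probe set 1449875_s_at read -0.75, -0.12 and -0.59 on 2D11 and 0.12, 1.31 and 1.27 on OvacD8, and did not pass at -1.39 ± 0.39 (limma adjusted p = 0.171).

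In both probe sets the groups did not overlap, but OvacD8 replicate 1 lay nearer to the 2D11 arrays than the other OvacD8 arrays did. Without that array both passed as lower in 2D11, at -2.13 (limma adjusted p = 0.0118) and -1.78 (limma adjusted p = 0.0195). In that fit 4773 of all 45037 probe sets passed. Over the fits without 1 array, the limma adjusted p reached 0.190 for 1439121_at and 0.418 for 1449875_s_at. The last probe set with several symbols, 1422348_at under Gm38417, H2-Q2 and H2-D1, did not pass at -0.06 ± 0.03. Of the 8 such probe sets, 1 was higher, 3 were lower and 4 did not pass.

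**Figure D2:**
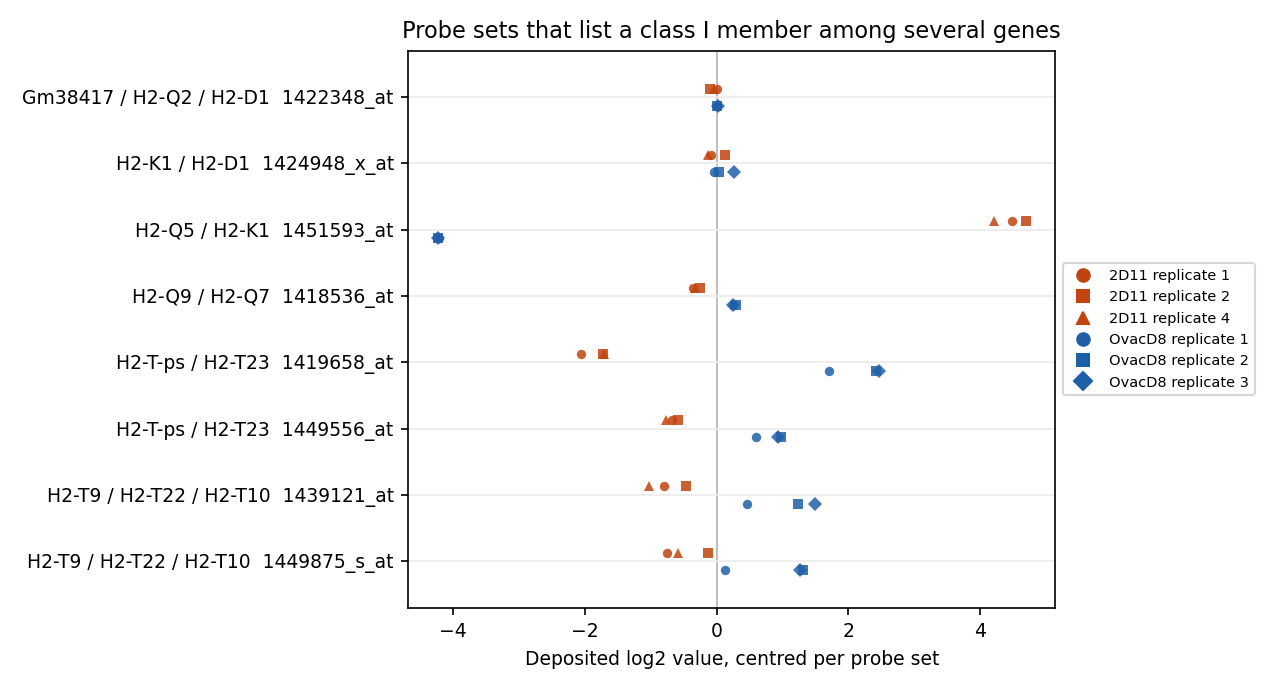
Deposited log2 values, centred per probe set, of the 8 probe sets that list a member among several genes, on the 2D11 (red) and OvacD8 (blue) arrays. The probe set of H2-Q5 and H2-K1 has 2D11 above OvacD8 by 8.69, while those of H2-T23, H2-T10 and H2-T22 and H2-Q7 have all 2D11 arrays below all OvacD8 arrays.

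H2-M3, a nonclassical heavy chain, and B2m, the light chain, did not pass. The H2-M3 probe set, 1421358_at, read -0.02, 0.05 and -0.37 on 2D11 and -0.26, 0.13 and 0.02 on OvacD8, a difference of -0.08 ± 0.16 (limma adjusted p = 0.92). The groups overlapped, with 1 low array in each. The B2m probe set 1449289_a_at read 0.05, -0.03 and 0.12 on 2D11 and -0.11, 0.03 and -0.03 on OvacD8, a difference of 0.08 ± 0.06 (limma adjusted p = 0.655).

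The second B2m probe set, 1452428_a_at, differed by -0.04 ± 0.06 (limma adjusted p = 0.905), with values from -0.15 to 0.05 over the 6 arrays. Of these 3 probe sets, 0 reached an unadjusted p under 0.05 in limma and 0 passed when variances were not moderated. Because levels were removed, these values do not show how strongly either gene was expressed.

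Over all members, 3 of 17 probe sets were higher in 2D11, 1 was lower and 13 did not pass (limma, Benjamini-Hochberg over 45037 probe sets). This is 23.5% called, from 2 genes, where the background was 4.06% of all probe sets tested, 2% higher and 2.05% lower. Among all probe sets ending in _x_at, 4.01% were called. The groups did not overlap in 6 members, against 20.3% of all probe sets, and 6 reached an unadjusted p under 0.05, against 16% of all. The median difference of the members was 0.01, as it was over all probe sets. The probe sets of 1 gene share their RNA and may share sequence, so the 3 of H2-D1 are not independent of each other.

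Arrays of a group were not equally alike. Across the 29526 probe sets spanning at least 0.1, OvacD8 replicate 1 correlated with the other OvacD8 arrays at 0.298 and 0.353, where those correlated with each other at 0.855. Its poly-A spike-in controls, bacterial RNAs that follow the labelling, averaged 0.47, within the range of the 2D11 arrays (-0.10 to 0.79), against -1.59 and -2.26 on the other OvacD8 arrays. Some macrophage and class II probe sets were highest on it and others were not. Of those spanning at least 0.1, it was the highest of the 6 arrays in 4 of 10 macrophage and dendritic cell probe sets and in 8 of 11 class II probe sets, and the lowest OvacD8 array in 2 of each. Csf1r probe set 1419872_at read 2.92 on it, where the other 5 arrays lay between -0.02 and 0.002, and H2-Aa probe set 1435290_x_at read 3.30. Cd68 probe set 1449164_at ran the other way, at 0.48 on it and 3.34 and 3.44 on the other OvacD8 arrays, as did H2-Ab1 probe set 1451721_a_at, at 0.27 against 1.85 and 2.10. The 13 macrophage and dendritic cell probe sets (10 of 12 genes measured) averaged 0.54 on it, 0.14 and 0.10 on the other OvacD8 arrays and -0.09 to 0.02 on 2D11. Of these, 0 passed (limma; 0 higher and 2 lower at an unadjusted p under 0.05, and 0 without moderation). Whether a defining marker was at 0 cannot be read from centred values, and the part of these cells in the results was not tested. Without OvacD8 replicate 1, 4 members passed as with it, 3 higher and 1 lower. The 14 B cell probe sets averaged -0.04 to 0.02 on the 6 arrays, and of 11 T cell probe sets 2, both of Cd247, were lower in 2D11.

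The rest of the class I pathway was described by 96 probe sets in 5 lists, of which 1 was higher and 4 were lower. This is 5.21%, near the 4.06% of all probe sets. In the peptide loading complex and transporter list, 0 of 19 probe sets of 8 genes passed (limma; 0 higher and 7 lower at an unadjusted p under 0.05, which 16% of all probe sets reached, and 0 without moderation), and the median difference was -0.26, against 0.01 over all probe sets. Calr, a chaperone of new heavy chains, came nearest in 1456170_x_at, at -0.45 ± 0.07 (limma adjusted p = 0.0505). The Tap1 probe set 1416016_at, of the peptide transporter, did not pass at -0.92 ± 0.37 (limma adjusted p = 0.336), with OvacD8 replicate 1 at -0.02 and the other OvacD8 arrays at 0.68 and 1.29. Without OvacD8 replicate 1, 2 of the 19 passed, where 4773 of all 45037 probe sets did. Without OvacD8 replicate 3, 1 of the 19 passed, where 904 of all did. Of 5 immunoproteasome and activator probe sets, which cut peptides for class I, 0 passed (limma; 0 higher and 2 lower at an unadjusted p under 0.05, and 0 without moderation).

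Among regulators of class I transcription, 0 of 35 probe sets of 18 genes were higher and 1 was lower (2 and 8 at an unadjusted p under 0.05). The lower one was 1451462_a_at of Ifnar2, a chain of the type I interferon receptor, at -0.45 ± 0.06 (limma adjusted p = 0.0269). The other Ifnar2 probe sets did not pass (-0.04 and -0.02). Nlrc5, the transactivator of class I genes, stood at -0.12 ± 0.07 and did not pass (limma adjusted p = 0.528), nor did Irf1 at -0.60 ± 0.17 (0.165) or Irf9 at -1.55 ± 0.27 (0.058). Without OvacD8 replicate 1 the count of this list was 4, where 4773 of all 45037 probe sets passed. Without any 1 of the other 5 arrays the count was 0, where 811 to 1013 of all passed.

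Of 19 probe sets of 14 other class I and class I-like genes, 0 were higher and 1 was lower (3 and 2 at an unadjusted p under 0.05). The list does not hold H2-T18, which was higher in 2D11 and is given under other observations. Fcgrt, the heavy chain of the neonatal Fc receptor, which also pairs with B2m, read -1.999, -1.60 and -1.94 on 2D11 and 1.60, 1.995 and 1.93 on OvacD8. Its groups lay far apart, with a difference of -3.69 ± 0.16 (limma adjusted p = 0.00109). Without OvacD8 replicate 1, 4 probe sets of this list passed (4773 of all 45037 did), and without 2D11 replicate 4, 2 did (1013 of all).

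Of 18 probe sets of 12 receptors that bind class I, 1 was higher and 2 were lower (2% and 2.05% of all probe sets were). Klrd1 (CD94), which pairs with NKG2 chains to bind Qa-1, read -0.12, -0.20 and -0.19 on 2D11 and 0.18, 0.15 and 0.12 on OvacD8, a difference of -0.32 ± 0.03 (limma adjusted p = 0.0104). Klrc1 (NKG2A), its inhibitory partner, did not pass at 0.81 ± 0.21 in 1426182_a_at (limma adjusted p = 0.147) or 0.54 ± 0.19 in 1425005_at (0.268). Klrc2 (NKG2C) did not pass at 0.44 ± 0.17 (0.322). The other calls were of CD8, the coreceptor of class I: Cd8b1 was lower in 1426170_a_at, at -2.36 ± 0.11 (limma adjusted p = 0.00142), and Cd8a higher in 1444078_at, at 0.85 ± 0.07 (0.00814). The other 4 Cd8a probe sets did not pass, and the farthest of them, 1440811_x_at, stood the other way at -2.40 ± 0.44 (limma adjusted p = 0.0636), with no overlap between the groups, so Cd8a as a gene has no single direction here. The list had 1 call without OvacD8 replicate 2, 2 without 2D11 replicate 4 and 4 without OvacD8 replicate 1 or 3. Of all 45037 probe sets, 811, 1013, 4773 and 904 passed in these fits, in that order.

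**Figure D3:**
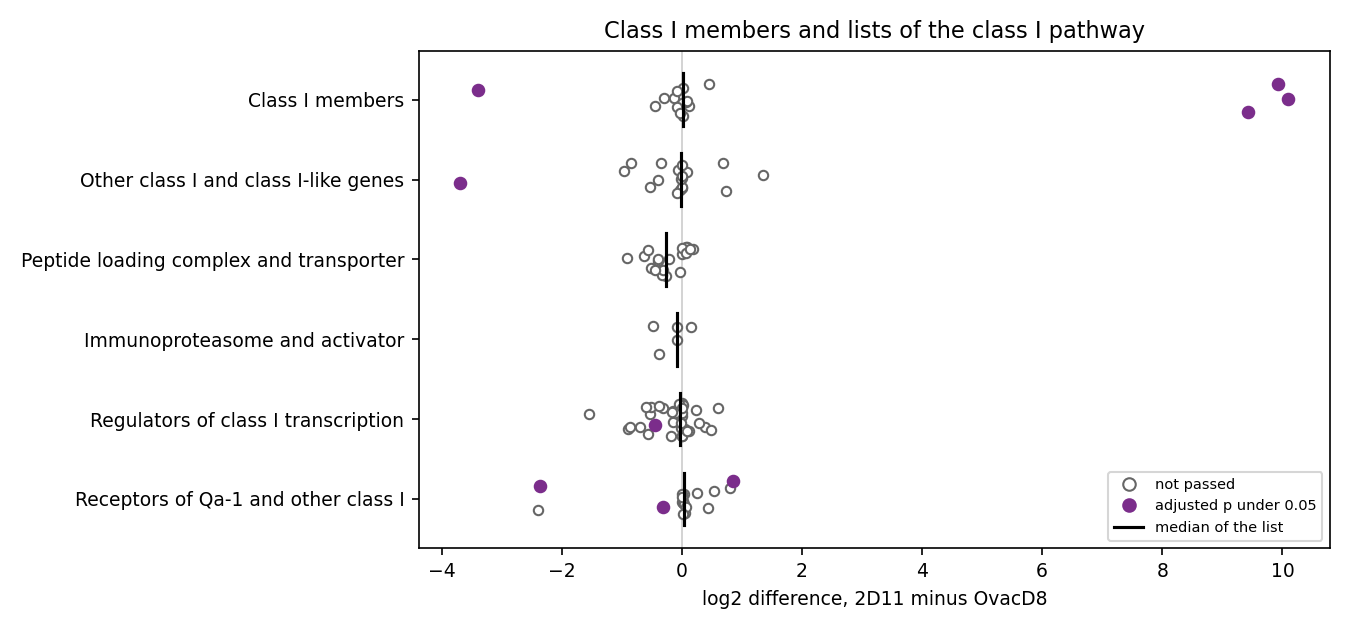
log2 differences, 2D11 minus OvacD8, of each probe set of the class I members and of 5 lists of the class I pathway; filled points passed at an adjusted p under 0.05 and the bar is the median of the list. The 3 points near 10 are probe sets of H2-D1, and the loading complex has the lowest median (-0.26).

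Along the H2 complex, from H2-K2 to H2-M2 in the gene order of GRCm38.p6, 124 genes had a probe set of their own. Of 208 probe sets, 11 were higher and 2 were lower in 2D11 (6.25%, against 4.06% of all). H2-D1 and H2-Q10 supplied 4 of these 13, and of the 24 class I probe sets in this order no other passed. The probe sets of H2-T23 and of H2-Q7, lower in 2D11, are not among the 208, since they carry several symbols. Among class II genes, 1450648_s_at of H2-Ab1 was lower (-2.95 ± 0.25; limma adjusted p = 0.00816) and 1422892_s_at of H2-Ea higher (1.53 ± 0.09; limma adjusted p = 0.00284). The remaining H2-Ab1 probe sets did not pass (-1.73 and -0.86), nor did the remaining H2-Ea ones (0.52 and 0.02). RefSeq lists H2-Ea as a transcribed pseudogene in C57BL/6J. The other 7 calls were of genes that are neither class I nor class II, all higher, led by Msh5, a meiotic recombination gene, at 4.98 ± 0.45 in 1430771_a_at (limma adjusted p = 0.0093). Msh5 probe set 1449537_at did not pass at 1.61 ± 0.55 (limma adjusted p = 0.249). Tubb5 and Ddr1, also among these calls, likewise have probe sets that did not pass.

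**Figure D4:**
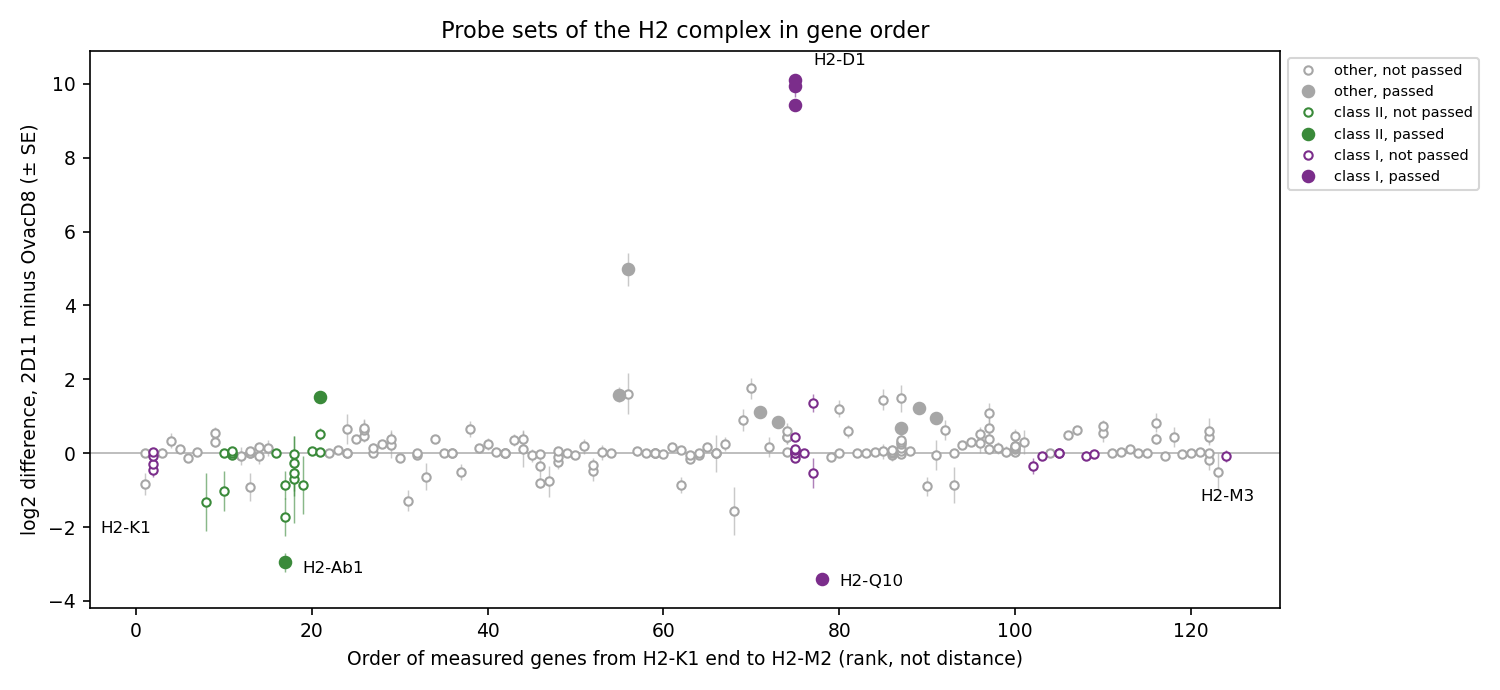
log2 differences, 2D11 minus OvacD8, with the standard error of the fit, for probe sets of 124 genes in their order along the H2 complex (rank, not distance); purple is class I, green class II and grey other genes, and filled points passed. The H2-D1 points between 9.43 and 10.099 stand above their neighbours, while further H2-D1 probe sets at the same rank lie near 0.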

How the data were processed

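RNA of 6 arrays, 3 per group, had been amplified with the Ovation system and labelled with biotin, per the labels' protocols. The log2 values the authors deposited were made with RMA, version not stated, per the submitters' processing notes. No source used here names the log base; a span of 11.37 in one probe set exceeds 11.09, the 16-bit range in natural logs. The median of every probe set was within 5e-07 of 0, so levels had been removed. The annotation gave 1 symbol for 34945 probe sets, several for 932 and none for 9160, and 64 control probe sets were left out.

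Linear models with moderated variances (limma 3.58.1, R 4.3.3; lmFit, eBayes) were fitted to the other 45037 probe sets, and a probe set passed the two-sided test after Benjamini-Hochberg adjustment at an adjusted p under 0.05. The fit was also run on simulated data with independent normal noise of equal spread on all arrays. That setting differs from the unequal arrays seen here, so it does not test the p-values under them. Named genes were all members, and those of fixed lists that passed or that a result turned on. Members and lists were chosen with earlier results of these data known. Precision is limited by the 6 arrays. Alternatives left out single arrays, changed scaling, variances or probe sets, or added the replicate number or the spike-in split. Sequences came from RefSeq tables, which gave promoters; probe and protein sequences were not used here.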

Additional observations from a re-analysis of the deposited data

How the results depend on the processing

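The 3 H2-D1 probe sets and H2-Q10 passed in every fit that held them, and 4 members passed under median centring, quantile normalization, robust variances, unmoderated variances, the spike-in split, a minimum span and the replicate block, with 4 to 5 in the leave-one-out fits (3 to 4 higher, 1 lower). Without _x_at and _s_at probe sets 1 of 6 members passed, 0 higher (1 at an unadjusted p under 0.05) and 1 lower. Counting probe sets with several symbols, added after the data were seen, gave 8, of which 4 lower. Array weights, whose estimate did not converge and gave OvacD8 replicate 3 a weight of 19.0 and the 4 lightest arrays 0.23 to 0.54, gave 9 members, 5 higher and 4 lower, and 17219 of all probe sets. Of all probe sets 1827 passed (902 higher, 925 lower), 676 and 1112 after quantile normalization, 740 without moderation, 2962 among those spanning at least 0.1, 811 to 4773 leaving out 1 array (lowest without OvacD8 replicate 2, highest without OvacD8 replicate 1) and 229 with the replicate number as a block. The titles share only numbers 1 and 2, whose arrays' deviations correlated at -0.03 and 0.21, so the numbers are not shown to pair. Numbers 3 and 4 occur once each, so the differences in the block fit rest on replicates 1 and 2 of each group alone. With that block, 1449556_at of H2-T23 and H2-T-ps (-1.42, adjusted p = 0.089) and 1418536_at of H2-Q9 and H2-Q7 (-0.58, 0.137) did not pass. The 3 calls of the class I receptor list and the 1 of the regulator list were also lost with the block (0 and 0). The gene mean of H2-D1 (3.33) turned the sign of 1450170_x_at, since it averages 9 probe sets. Of 391 comparisons of a probe set with an alternative, 28 changed sign where neither fit passed.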

Other observations

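Other genes of the H2 complex that the class I lists do not hold also differed. Lta, which encodes lymphotoxin alpha and lies in the class III region, was higher in 2D11 by 1.11 ± 0.17 in 1420353_at (limma adjusted p = 0.037). Ier3, an immediate early gene between H2-Q10 and the T region, was higher by 1.22 ± 0.09 in 1419647_a_at (limma adjusted p = 0.00607). H2-T18, a thymus leukaemia antigen gene that RefSeq does not place in the order used above, read 1.55, 0.60 and 0.80 on 2D11 and -0.65, -0.62 and -0.60 on OvacD8 in 1460418_x_at, a difference of 1.60 ± 0.26 (limma adjusted p = 0.0478).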
